A study of Sus scrofa with 8 samples.

Results

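Ion channel genes were followed in cultured islets from newborn pigs. They were taken by symbol, as the genes whose only listed symbol began with KCN, CACN, CLCN, CLIC, TRPC, TRPM, TRPV, RYR, ITPR, P2RX, ANO, VDAC or ORAI, or with SCN and a digit or HCN. This gave 47 genes with 82 probe sets, of the 6765 genes that had a probe set with 1 symbol on the array. Of the 47 genes, 22 encoded potassium channel subunits (KCN) and 5 were grouped, by symbol only, as auxiliary subunits of voltage-gated calcium (Cav) channels. No gene was found under SCN or HCN, and none of the pore-forming Cav subunits or KCNJ11, the pore of the beta cell KATP channel, was among the 47. Those genes were not analysed here. TRPC4AP, which encodes a protein that binds a TRP channel, matched by its letters and is not a channel subunit.

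The study asked how islets isolated from neonatal pigs differ with the age of the donor. Islets came from male Duroc/Large white cross pigs, with 4 pigs labelled 7-day-old and 4 labelled 3-day-old, and RNA from each pig was hybridised to 1 porcine GeneChip array. All islets were made by collagenase digestion and kept in Ham's F10 medium with glucose, isobutylmethylxanthine, nicotinamide, albumin, glutamine, calcium and antibiotics, so both labels share this culture and neither is freshly isolated tissue. Such cultures hold endocrine, duct and other cells together. Currents through Kv and Cav channels were recorded in the same study, and those recordings were not used here.

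In a beta cell, glucose metabolism closes KATP channels, the membrane depolarises and Cav channels admit the calcium that triggers insulin release. Voltage-gated potassium (Kv) and calcium-activated potassium channels then repolarise the membrane and end each action potential. Kv and Cav channels are built from pore-forming subunits and from auxiliary subunits that set how many channels reach the surface and how fast they open and close. Chloride, TRP and store-operated channels shape the resting potential and calcium refilling, and IP3 and ryanodine receptors release calcium from the endoplasmic reticulum.

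The deposited values were intensities that had been scaled to the same trimmed mean of 500.1 on every array. The 8 arrays were alike in depth of signal, with medians of 171.6 to 178.5. Arrays of the same label correlated at 0.944 to 0.955 over all probe sets and arrays of different labels at 0.936 to 0.943. The first principal component (26.2% of the variance) separated the labels. On the second (14.9%), replicates 3 and 4 of the arrays labelled 7-day-old lay at -68.5 and 39.8, with the other 6 arrays between -24.4 and 17.9, so the main counts are also given without these 2 arrays. A probe set was tested where it reached its array's 20th percentile (an intensity of 26.4 to 31.3) in at least 1 array. Differences are log2 intensity in arrays labelled 7-day-old less those labelled 3-day-old, tested with limma over all 21574 probe sets that passed, with an adjusted p under 0.05 as the threshold. These directions follow the deposited labels. They oppose the direction in the study's supplementary gene tables for every probe set that could be matched, CACNA2D1 among them, and which of the labels are exchanged was not settled here.

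Of the 47 genes, 45 were tested, and 33 reached the 20th percentile in all 8 arrays. ITPR1, an IP3 receptor, and KCNE2, a Kv auxiliary subunit, did not reach it in any array (at most 5.22 and 12.2) and were not tested. The test was passed by 5 of the 45 (11.1%), beside 12.2% of all 6540 genes tested. KCNB2, CACNA2D1 and KCNIP1 were higher in arrays labelled 7-day-old, which is 3 of 45 (6.67%), beside 5.03% of all genes. KCNQ1 and KCNE3 were lower, which is 2 of 45 (4.44%), beside 7.16% of all genes. The share of ion channel genes that passed was therefore near the background of the array. There was no overlap between the labels for 8 genes (17.8%, beside 24.7% of all genes): the 5 that passed and KCNA6, ITPR3 and VDAC1. The median log2 difference of the 45 genes was -0.03, beside -0.02 for all genes tested. The 33 genes at the 20th percentile in all 8 arrays ranged from -0.72 to 1.17. The median standard error of the ion channel genes was 0.211, against 0.13 for all genes, so that smaller differences were harder to detect among them. In RNA from whole islet cultures, fewer cells of a type and less RNA per cell cannot be told apart.

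Some marker genes of the cell types in the culture moved with the labels as well. The counts below stand beside 5.03% of all genes tested that were higher and 7.16% that were lower. Of 15 islet endocrine markers tested, 6 were higher in arrays labelled 7-day-old (NEUROD1, PCSK2, SCG3, CHGB, PCSK1 and SCG2) and none was lower, with a median log2 difference of 0.53. Their summed intensity was 171604 to 210760 in arrays labelled 7-day-old and 147184 to 183291 in those labelled 3-day-old, so the sums overlapped. The hormone genes INS, GCG, SST and PPY differed by -0.07, -0.19, 0.08 and 0.19 and did not pass, and IAPP did not reach the 20th percentile in any array. Endothelial markers were lower in 6 of 12 (median -1.02, summed intensity 909 to 1091 under the 7-day-old label against 2099 to 2639 under the 3-day-old label), and fibroblast and stellate markers in 6 of 17 (-0.74, 44240 to 49796 under the 7-day-old label against 59304 to 75314 under the 3-day-old label). Among the 6 endothelial calls, TIE1 was at the 20th percentile in 0 arrays labelled 7-day-old and 4 labelled 3-day-old, so it was tested only through the label where it was higher. Pericyte and smooth muscle markers were lower in 3 of 8 (-0.55, 3114 to 3911 under the 7-day-old label against 5003 to 8893 under the 3-day-old label), and duct markers in 2 of 10 (-0.28, 54129 to 57339 under the 7-day-old label against 61040 to 66888 under the 3-day-old label). Acinar markers were lower in 1 of 8 (-0.25, 29241 to 45648 under the 7-day-old label against 39963 to 49408 under the 3-day-old label). Leukocyte markers were lower in 2 of 15 (-0.75, 823 to 1061 under the 7-day-old label against 1002 to 2084 under the 3-day-old label). Neural and Schwann markers were lower in 6 of 11 with SNAP25 higher (-0.67, 13780 to 16270 under the 7-day-old label against 12164 to 17848 under the 3-day-old label). With 1 array left out, 4 to 6 endocrine, 0 to 1 leukocyte and 1 neural marker were called higher. Without replicate 1 of the arrays labelled 3-day-old, 1 leukocyte marker was called higher and 0 were called lower. Markers called lower then numbered 3 to 6 endothelial, 4 to 8 fibroblast, 2 to 3 pericyte, 1 to 2 duct, 1 to 2 acinar, 0 to 2 leukocyte and 2 to 5 neural. The part of these differences in the values of the ion channel genes was not tested.

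**Figure D1:**
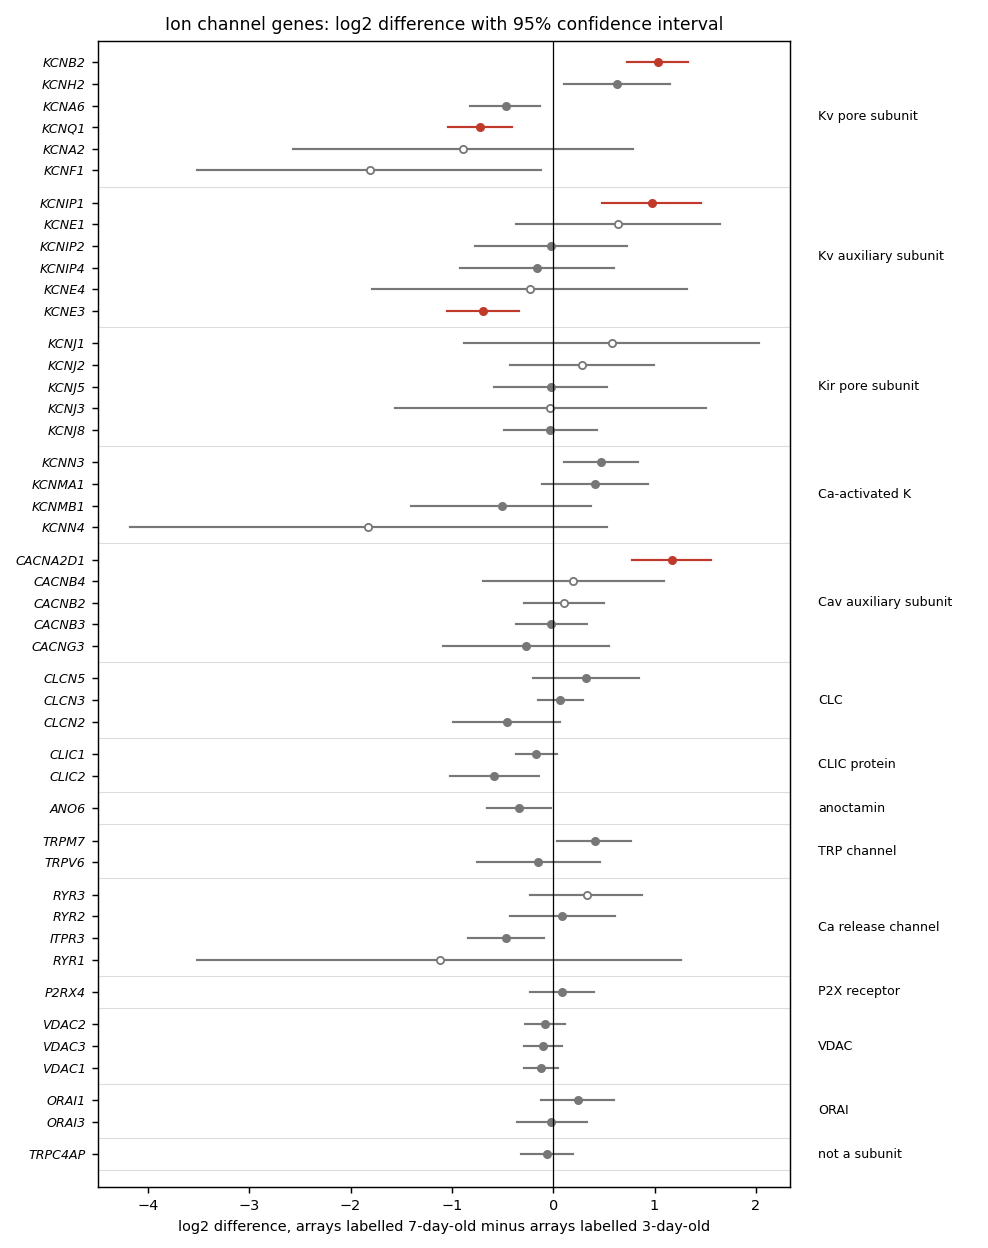
Log2 difference (horizontal axis, arrays labelled 7-day-old less those labelled 3-day-old) of the 45 ion channel genes tested, grouped by the role of the protein, with 95% confidence intervals. Red marks the 5 genes that passed the test, and open circles mark genes below the 20th percentile in at least 1 array, which include the widest intervals.

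KCNB2 encodes a pore-forming Kv subunit of the delayed rectifier kind. Its intensity was 1034, 1131, 1057 and 1147 in arrays labelled 7-day-old, against 559, 487, 455 and 661 in arrays labelled 3-day-old. Every array labelled 7-day-old lay above every array labelled 3-day-old, and the 4 differed little from each other. The means were 1092 ± 55.0 in arrays labelled 7-day-old and 540 ± 91.2 in those labelled 3-day-old (SD, n = 4 each), a 2.04-fold difference. On the log2 scale this was 1.03 (SE 0.129, 95% confidence interval 0.73 to 1.33, limma adjusted p = 0.00631). KCNB2 passed with each of the 8 arrays left out in turn (adjusted p 0.00782 to 0.0243). Without the 2 arrays apart on the second component the difference was 1.02 and missed the threshold (adjusted p = 0.0559).

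KCNQ1 encodes another pore-forming Kv subunit, which opens slowly and pairs with KCNE proteins in heart and epithelia. Its intensity was 157, 180, 168 and 225 in arrays labelled 7-day-old, against 276, 308, 274 and 340 in arrays labelled 3-day-old. The labels did not overlap, and replicate 4 was the highest under both labels. The means were 182 ± 29.9 in arrays labelled 7-day-old and 300 ± 30.9 in those labelled 3-day-old (SD, n = 4 each), so KCNQ1 was 1.65-fold lower in arrays labelled 7-day-old. On the log2 scale this was -0.72 (SE 0.137, 95% confidence interval -1.04 to -0.41, limma adjusted p = 0.0198). The call was lost without replicate 1 or 2 of the arrays labelled 7-day-old (adjusted p = 0.0531 and 0.0566), without replicate 2 of those labelled 3-day-old (0.0567) and without the 2 arrays apart (-0.83, 0.0534).

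The 4 other Kv pore genes did not pass. KCNA6, a subunit of the shaker type, was at 55.2, 48.2, 52.2 and 63.1 in arrays labelled 7-day-old, against 66.0, 70.1, 72.5 and 97.0 in arrays labelled 3-day-old. These values did not overlap, with a log2 difference of -0.47 (adjusted p = 0.0838). KCNH2, the subunit of a rapidly inactivating channel best known from the heart, was at 132, 107, 90.5 and 139 in arrays labelled 7-day-old, against 94.4, 58.3, 60.1 and 94.2 in those labelled 3-day-old. The log2 difference of KCNH2 was 0.63 (SE 0.224, adjusted p = 0.118) and its labels overlapped. KCNA2, another shaker-type subunit, reached the 20th percentile in 2 arrays and KCNF1, a subunit that forms channels only with other Kv subunits, in 1 array, all labelled 3-day-old. Both genes were therefore tested only through the label where they were higher, and the sizes of their differences are not given. Neither passed (limma adjusted p = 0.472 for KCNA2 and 0.156 for KCNF1). The intensities of KCNF1 were 2.01 to 7.27 in arrays labelled 7-day-old, against 4.82 to 31.3 in those labelled 3-day-old.

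The Kv auxiliary subunits held 2 of the 5 genes that passed. KCNIP1 encodes a calcium-binding protein that joins A-type Kv channels and speeds their recovery from inactivation. Its intensity was 216, 158, 163 and 149 in arrays labelled 7-day-old, against 69.3, 111, 68.3 and 107 in arrays labelled 3-day-old. The arrays labelled 3-day-old fell into a higher and a lower pair, both below every array labelled 7-day-old. The means were 171 ± 30.4 in arrays labelled 7-day-old and 88.9 ± 23.2 in those labelled 3-day-old (SD, n = 4 each), with a log2 difference of 0.97 (SE 0.211, 95% confidence interval 0.48 to 1.46, limma adjusted p = 0.0296). The call of KCNIP1 was kept only without replicate 2 or 4 of the arrays labelled 3-day-old (adjusted p = 0.042 and 0.0358). Leaving out any of the other 6 arrays, or the 2 arrays apart together, took its adjusted p above the threshold (up to 0.0734 with 1 array left out, and 0.104 without both arrays).

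KCNE3 encodes a single-span subunit that holds KCNQ1 channels open in epithelia. Its intensity was 1720, 1853, 2176 and 2733 in arrays labelled 7-day-old, against 3133, 3351, 3574 and 3458 in arrays labelled 3-day-old. The arrays labelled 7-day-old were all lower and spread more widely, with replicate 4 the nearest to the other label. The means were 2120 ± 451 in arrays labelled 7-day-old and 3379 ± 188 in those labelled 3-day-old (SD, n = 4 each), so KCNE3 was 1.62-fold lower. The log2 difference was -0.69 (SE 0.152, 95% confidence interval -1.05 to -0.34, limma adjusted p = 0.0301). With 1 array left out, the call was kept only without replicate 4 of the arrays labelled 7-day-old (adjusted p = 0.0174) and the highest value was 0.0807. Without the 2 arrays apart KCNE3 still passed, at -0.92 (adjusted p = 0.0333).

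The 4 other auxiliary subunits tested did not pass. KCNIP2 and KCNIP4, relatives of KCNIP1, averaged 73.3 ± 21.7 and 67.5 ± 21.9 in arrays labelled 7-day-old, against 76.2 ± 26.0 and 76.3 ± 24.8 in arrays labelled 3-day-old (SD, n = 4 each). The interval of the log2 difference was -0.77 to 0.73 for KCNIP2 and -0.92 to 0.60 for KCNIP4, so changes as large as that of KCNQ1 in either direction were not excluded for KCNIP2. KCNE1, which slows KCNQ1 channels, and KCNE4, which inhibits them, were below the 20th percentile in 4 arrays and in 1 array. Their log2 differences were 0.64 (adjusted p = 0.385) and -0.23 (adjusted p = 0.856). For KCNE4, replicate 4 of the arrays labelled 7-day-old was at 18.7 and the other 3 were at 87.6 to 185.

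**Figure D2:**
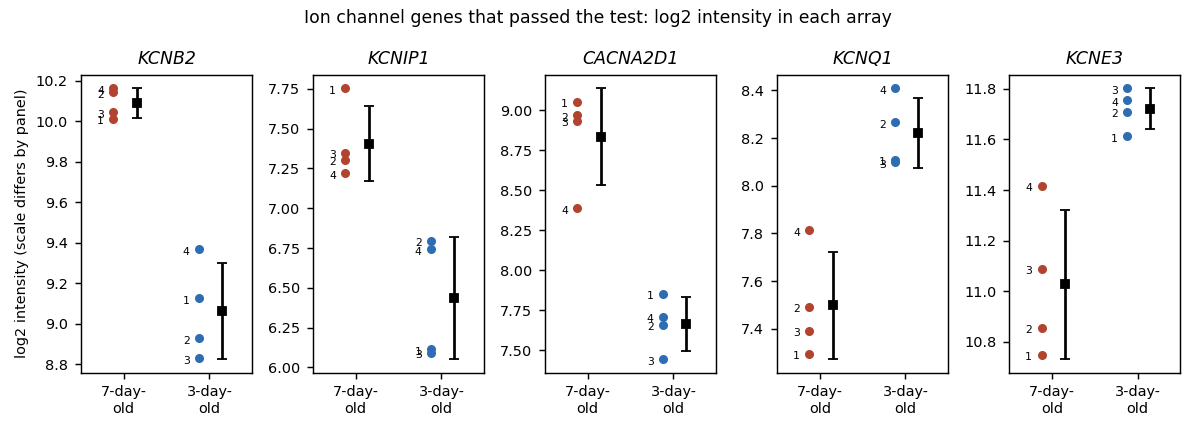
Log2 intensity (vertical axis, own scale in each panel) of the 5 genes that passed the test, for the 4 arrays labelled 7-day-old and the 4 labelled 3-day-old. Numbers name the replicates, squares and bars are the mean and SD, and in each panel the 2 labels do not overlap.

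The inward rectifier genes measured here gave no call among 5. KCNJ8, the pore of the vascular KATP channel, had 93.1, 96.3, 111 and 100.0 in arrays labelled 7-day-old, against 73.6, 95.1, 144 and 107 in arrays labelled 3-day-old. On this probe set, which had the highest mean, the log2 difference was -0.03 (95% confidence interval -0.49 to 0.43). The arrays labelled 3-day-old enclosed the range of the others there. Another KCNJ8 probe set was at 72.9 to 96.1 in arrays labelled 7-day-old, against 96.5 to 117 in arrays labelled 3-day-old. The labels did not overlap on it, and its log2 difference of -0.4 did not pass (limma adjusted p = 0.0738). The remaining KCNJ8 probe set was dimmer and differed by -0.26 (limma adjusted p = 0.3). KCNJ5, a subunit of channels opened by G proteins, differed by -0.02 (interval -0.58 to 0.53). Its partner KCNJ3, the renal channel KCNJ1 and the strong rectifier KCNJ2 reached the 20th percentile in 2, 1 and 3 arrays, and their log2 differences were -0.03, 0.58 and 0.28 (adjusted p 0.601 to 0.984).

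Among 4 calcium-activated potassium channel genes, none passed on the probe set with the highest mean. KCNMA1, the pore of the large-conductance BK channel, was at 305, 385, 295 and 281 in arrays labelled 7-day-old, against 273, 234, 155 and 313 in arrays labelled 3-day-old. The log2 difference was 0.41 (SE 0.225, adjusted p = 0.281), with replicate 4 of the arrays labelled 3-day-old above 3 of the arrays labelled 7-day-old. KCNMB1, the BK auxiliary subunit of smooth muscle, averaged 73.8 ± 29.8 in arrays labelled 7-day-old, against 98.4 ± 24.0 in those labelled 3-day-old (log2 difference -0.51, adjusted p = 0.43). A dimmer KCNMB1 probe set differed by -1.24 and did not pass either (adjusted p = 0.0913). That probe set reached the 20th percentile in 1 array labelled 7-day-old and 4 labelled 3-day-old. KCNN3, a small-conductance channel, averaged 57.8 ± 7.35 in arrays labelled 7-day-old and 41.9 ± 7.99 in those labelled 3-day-old (SD, n = 4 each). Its log2 difference was 0.47 (adjusted p = 0.10), and it passed only without replicate 4 of the arrays labelled 3-day-old (0.0447). KCNN4, the intermediate-conductance channel of blood and epithelial cells, reached the 20th percentile in 2 arrays, both labelled 3-day-old. It was thus tested only through the label where it was higher, and its size of difference is not given (adjusted p = 0.289).

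CACNA2D1 had the largest log2 difference of the genes that passed. It encodes an auxiliary Cav subunit that carries pore-forming subunits to the cell surface. Its intensity was 532, 501, 489 and 335 in arrays labelled 7-day-old, against 231, 202, 174 and 209 in arrays labelled 3-day-old. Replicate 4 was the lowest of the arrays labelled 7-day-old and still lay above all 4 of the other label. The means were 464 ± 88.0 in arrays labelled 7-day-old and 204 ± 23.4 in those labelled 3-day-old (SD, n = 4 each), a 2.25-fold difference. On the log2 scale this was 1.17 (SE 0.168, 95% confidence interval 0.78 to 1.56, limma adjusted p = 0.0086). CACNA2D1 passed with each array left out in turn (adjusted p 0.0104 to 0.0312) and without the 2 arrays apart, at 1.35 (0.0312).

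The beta subunits of Cav channels, which bind the pore from inside the cell, did not pass. CACNB3 was at 228, 188, 251 and 172 in arrays labelled 7-day-old, against 238, 225, 189 and 193 in arrays labelled 3-day-old. The 2 ranges overlapped, and the interval of the log2 difference, -0.37 to 0.33, did not reach the size measured for CACNA2D1. CACNB2, the beta subunit best known from the heart, was close to the 20th percentile (34.0 ± 7.22 in arrays labelled 7-day-old, against 31.3 ± 3.70 in those labelled 3-day-old, SD, n = 4 each), with a log2 difference of 0.11 (interval -0.29 to 0.50). CACNB4 and CACNG3, mainly known from brain, differed by 0.20 and -0.27 with standard errors of 0.383 and 0.353. For CACNB4, replicate 3 was the highest under both labels, at 87.4 in the array labelled 7-day-old and 78.8 in the one labelled 3-day-old.

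**Figure D3:**
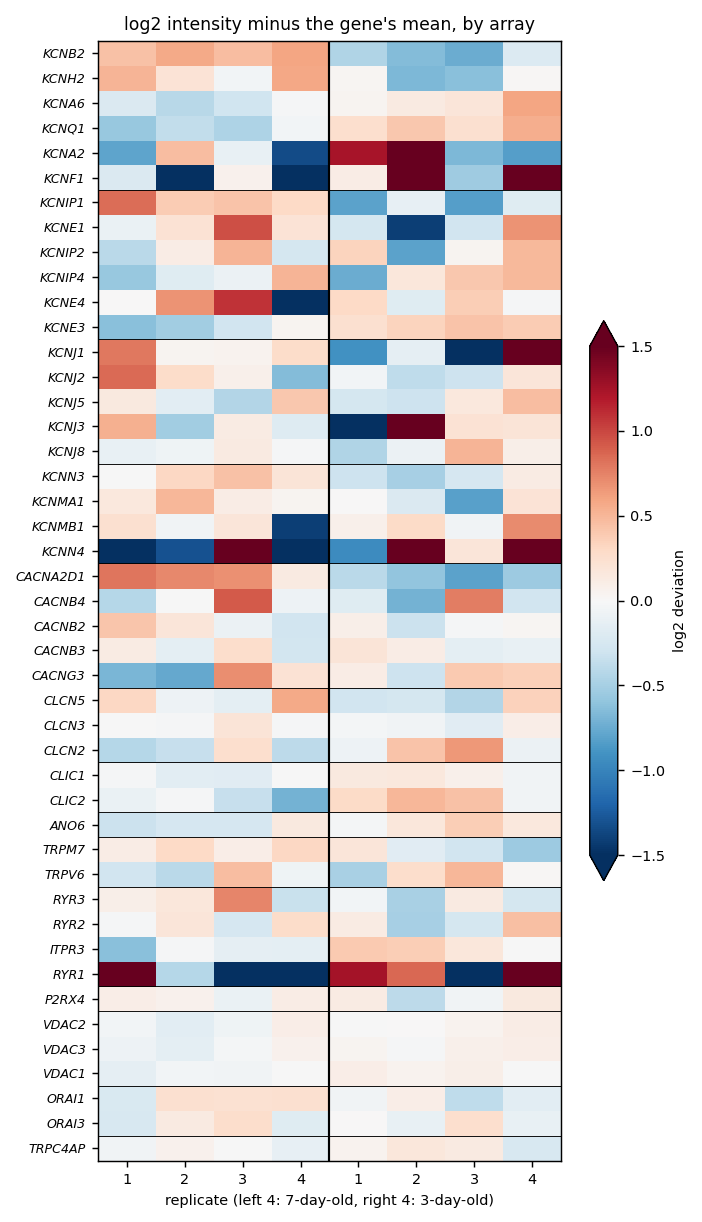
Log2 intensity of each tested ion channel gene in each array, minus the mean of that gene over the 8 arrays (colour, clipped at 1.5 either way), with arrays labelled 7-day-old on the left and arrays labelled 3-day-old on the right, in the same gene order as the plot of differences. KCNB2, KCNIP1 and CACNA2D1 are red on the left and blue on the right, KCNQ1 and KCNE3 mostly the reverse, and the deepest colours belong to genes near background such as RYR1 and KCNN4.

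Chloride channels and related proteins gave no call. CLCN3, an endosomal chloride and proton exchanger, averaged 1674 ± 125 in arrays labelled 7-day-old and 1592 ± 125 in those labelled 3-day-old (SD, n = 4 each). The interval of its log2 difference was -0.15 to 0.29 on this probe set, among the narrowest of the 45 genes tested. Its other probe sets had wider intervals. They differed by 0.34 (interval -0.01 to 0.7) and -0.03 (-0.37 to 0.32), and neither passed (limma adjusted p = 0.192 and 0.93). CLCN2, a plasma membrane chloride channel, was at 270, 286, 431 and 277 in arrays labelled 7-day-old, against 344, 490, 569 and 341 in arrays labelled 3-day-old. All arrays labelled 7-day-old but replicate 3 were below all of the others, and the log2 difference was -0.46 (SE 0.228, adjusted p = 0.239). CLCN5, another endosomal exchanger, differed by 0.32 (adjusted p = 0.398). CLIC2, a small soluble protein of the chloride intracellular channel family, was at 475, 503, 399 and 311 in arrays labelled 7-day-old, against 620, 716, 691 and 488 in arrays labelled 3-day-old. Its log2 difference of -0.58 missed the threshold (adjusted p = 0.0936) with 1 array of each label overlapping. CLIC1 differed by -0.17 (adjusted p = 0.261). ANO6, a lipid scramblase and ion channel, averaged 726 ± 115 in arrays labelled 7-day-old, against 913 ± 103 in those labelled 3-day-old (SD, n = 4 each), with a log2 difference of -0.34 (adjusted p = 0.16).

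None of the genes for calcium and cation entry channels passed on the probe set with the highest mean. ORAI1, the pore of store-operated calcium channels, was at 143, 199, 196 and 199 in arrays labelled 7-day-old, against 162, 180, 129 and 151 in arrays labelled 3-day-old. Its log2 difference was 0.24 (interval -0.12 to 0.60), with only replicate 1 of the arrays labelled 7-day-old inside the range of the other label. Its relative ORAI3 differed by -0.02 (interval -0.36 to 0.33). TRPM7, a cation channel fused to a kinase, was at 644, 732, 639 and 742 in arrays labelled 7-day-old, against 679, 533, 490 and 409 in those labelled 3-day-old. Its log2 difference of 0.41 did not pass (adjusted p = 0.147), and replicate 1 of the arrays labelled 3-day-old lay inside the range of the other label. TRPV6, a calcium channel of absorbing epithelia, averaged 42.1 ± 12.0 in arrays labelled 7-day-old, against 46.7 ± 12.8 in those labelled 3-day-old (SD, n = 4 each), with a log2 difference of -0.15 (adjusted p = 0.766). P2RX4, a cation channel opened by ATP, was at 958, 932, 835 and 967 in arrays labelled 7-day-old, against 969, 681, 863 and 987 in arrays labelled 3-day-old, or 0.09 on the log2 scale (interval -0.23 to 0.40).

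Among the calcium release channels, ITPR3, an IP3 receptor also known from secretory epithelia, was at 296, 453, 416 and 414 in arrays labelled 7-day-old. It was at 603, 593, 515 and 458 in arrays labelled 3-day-old. The labels met almost edge to edge (453 under the 7-day-old label and 458 under the 3-day-old label) without overlap. The log2 difference was -0.47 (SE 0.161, 95% confidence interval -0.84 to -0.09, adjusted p = 0.107). RYR2, the main ryanodine receptor of heart and the one described in beta cells, averaged 82.9 ± 13.0 in arrays labelled 7-day-old and 79.6 ± 23.4 in those labelled 3-day-old (SD, n = 4 each), 0.09 apart on the log2 scale (interval -0.43 to 0.61). RYR1 and RYR3, known from skeletal muscle and brain, reached the 20th percentile in 2 and 6 arrays and differed by -1.12 and 0.33 (adjusted p = 0.527 and 0.424).

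The VDAC genes encode the pores of the outer mitochondrial membrane and had the smallest errors of any role (median SE 0.0806). VDAC1 was at 4980, 5292, 5234 and 5431 in arrays labelled 7-day-old, against 5839, 5642, 5771 and 5439 in arrays labelled 3-day-old. The labels did not overlap, although by a margin of less than 10 intensity units, and the difference of -0.12 did not pass (95% confidence interval -0.29 to 0.05, adjusted p = 0.353). VDAC2 averaged 4589 ± 341 in arrays labelled 7-day-old, against 4849 ± 189 in those labelled 3-day-old, and VDAC3 averaged 2005 ± 124 in arrays labelled 7-day-old, against 2145 ± 73.8 in those labelled 3-day-old (SD, n = 4 each). Their intervals were -0.28 to 0.12 and -0.29 to 0.09. On these probe sets of the 3 genes, differences of the size measured for KCNB2, CACNA2D1, KCNIP1, KCNQ1 and KCNE3 lay outside the intervals. Other VDAC2 probe sets had intervals of -0.32 to 0.06, -0.42 to 0.04, -1.08 to 0.61 and -1.49 to 1.65. The wider ones, from dimmer probe sets, hold the differences of KCNQ1 and KCNE3. TRPC4AP, matched by its letters, averaged 1120 ± 62.4 in arrays labelled 7-day-old, against 1173 ± 142 in those labelled 3-day-old (log2 difference -0.06, adjusted p = 0.77).

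Split by ion, 4 of 21 potassium channel genes tested passed (2 higher and 2 lower) and 1 of 24 other genes passed (CACNA2D1, higher), beside 12.2% of all genes tested. The difference between these 2 shares was not tested. Split by brightness, all 5 calls fell among the 33 genes at the 20th percentile in every array (15.2%, beside 13.3% of the 5757 such genes on the array). None of the 12 tested genes that were dimmer passed, and their median SE was 0.642, against 0.159 for the 33 brighter genes. The dimmer genes therefore gave little information in either direction.

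Several genes were read by more than 1 probe set, and 71 of the 82 probe sets were tested. In all, 7 of these 71 passed (9.86%, beside 10.7% of all probe sets): the 5 above and 1 further probe set each of KCNMA1 and P2RX4. The further KCNMA1 probe set was at 107, 126, 129 and 111 in arrays labelled 7-day-old, against 80.9, 71.3, 60.5 and 74.6 in arrays labelled 3-day-old. These values did not overlap, the log2 difference was 0.72 (adjusted p = 0.0134), and the call was kept with each array left out but not without the 2 arrays apart (0.082). The brighter KCNMA1 probe set had the same sign at 0.41 and did not pass. The further P2RX4 probe set was at 841, 801, 738 and 708 in arrays labelled 7-day-old, against 492, 487, 493 and 597 in those labelled 3-day-old. Its difference of 0.58 passed (adjusted p = 0.017), a call lost without replicate 2 or 3 of the arrays labelled 3-day-old (0.0518 and 0.0519) or replicate 2 of those labelled 7-day-old (0.0531), and without the 2 arrays apart (0.0626). All 4 probe sets of P2RX4 were positive, from 0.09 to 0.58.

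Of the 16 genes with more than 1 tested probe set, 9 had all of them on 1 side of 0 and 7 did not (CLCN3, ITPR3, KCNB2, KCNQ1, RYR3, VDAC1 and VDAC2). A probe set each of KCNE1, ITPR3 and RYR3 reached the 20th percentile only in arrays labelled 7-day-old. These probe sets entered the counts only through the label where they were higher. The second KCNB2 probe set was dim, at 9.07 to 33.8 in arrays labelled 7-day-old and 21.8 to 49.0 in those labelled 3-day-old. Its log2 difference of -0.70 (adjusted p = 0.342) ran against that of the probe set that passed. The other 2 tested KCNQ1 probe sets were dim as well, at 1.00 (adjusted p = 0.385) and -0.66 (adjusted p = 0.516). The second ITPR3 probe set reached the 20th percentile in 2 arrays, both labelled 7-day-old. It was thus tested only through the label where it was higher, and its size of difference is not given (limma adjusted p = 0.279). Averaged over all tested probe sets of the gene, KCNB2 was at 0.16 (limma adjusted p = 0.726) and KCNQ1 at -0.13 (0.819), and neither passed. The ITPR3 average did not pass either (0.478), but it includes the probe set tested only through 1 label. The second KCNE3 probe set had the same direction as the one that passed: 123, 197, 171 and 273 in arrays labelled 7-day-old, against 331, 318, 333 and 341 in arrays labelled 3-day-old. The labels did not overlap there either, and the log2 difference of -0.85 just missed the threshold (adjusted p = 0.0514). CACNA2D1 and KCNIP1 had 1 probe set each, so no second reading of them was made.

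**Figure D4:**
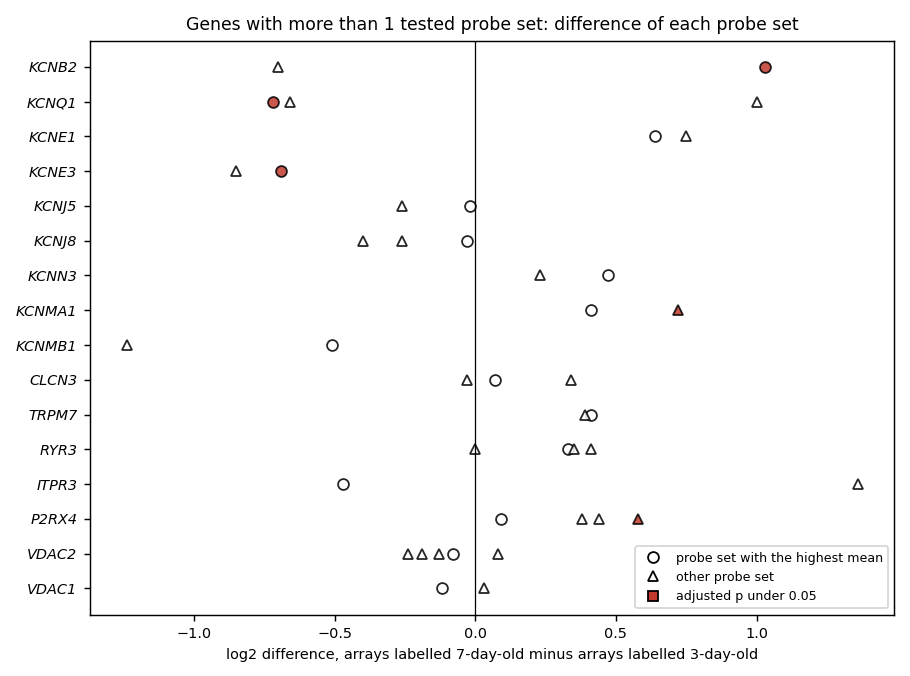
Log2 difference (horizontal axis, arrays labelled 7-day-old less those labelled 3-day-old) of every tested probe set of the 16 genes with more than 1. Circles are the probe set with the highest mean, triangles the others and red fill an adjusted p under 0.05, and the KCNB2 and KCNQ1 rows show probe sets on both sides of 0.

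**Figure D5:**
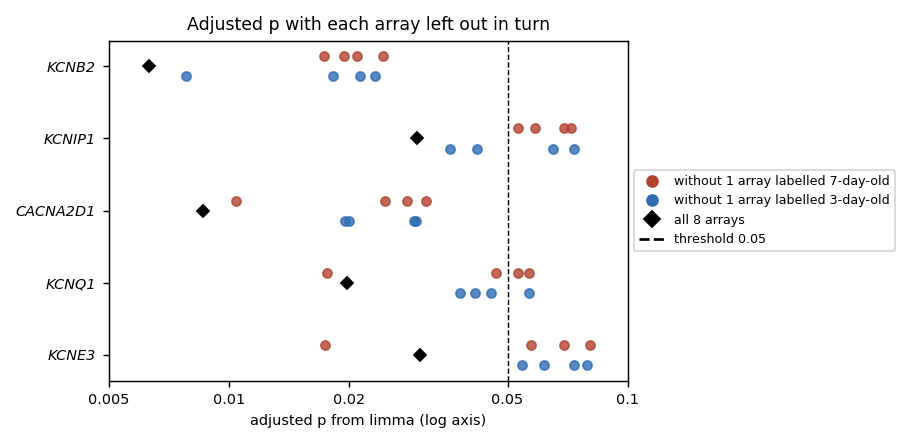
Adjusted p (horizontal log axis, limma) of the 5 genes that passed, with all 8 arrays (diamonds) and with each array left out (circles, 4 per label). KCNB2 and CACNA2D1 stay left of the dashed threshold of 0.05 in all 8 cases, KCNQ1 in 5, KCNIP1 in 2 and KCNE3 in 1.

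Genes that work beside these channels were read from 3 lists. Their counts stand beside 5.03% of all genes tested that were higher and 7.16% that were lower. Among 20 ion pumps, exchangers and channel partners tested, 2 were higher and 2 were lower, with a median log2 difference of -0.05. FXYD3, which modulates the sodium pump, was at 1443, 1448, 1468 and 2370 in arrays labelled 7-day-old, against 534, 847, 723 and 727 in arrays labelled 3-day-old. The log2 difference was 1.23 (adjusted p = 0.0146), a call kept with each array left out and lost without the 2 arrays apart (0.0624). FXYD5, of the same family, was 0.42 higher (adjusted p = 0.046), a call kept only without replicate 4 of the arrays labelled 3-day-old or replicate 3 of those labelled 7-day-old and otherwise lost (up to 0.116). FKBP1B, which binds ryanodine receptors, was lower, with a log2 difference of -0.39 (adjusted p = 0.0493) and was lost whichever array was left out (0.0612 to 0.113). The other lower gene was ATP2A1, a calcium pump of muscle (adjusted p = 0.0309). It reached the 20th percentile in 0 arrays labelled 7-day-old and 3 labelled 3-day-old, so it was tested only through the label where it was higher, and its size of difference is not given. With 1 array left out it passed only without replicate 4 of the arrays labelled 7-day-old (up to 0.0818 otherwise). The calcium pump ATP2A2 and the plasma membrane pump ATP2B1 differed by -0.08 and 0.31 and did not pass (adjusted p = 0.653 and 0.133).

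Among 15 tested channel genes that go by other symbols, 1 was higher and 2 were lower, with a median of -0.42. GJA1, which forms gap junctions, was at 2437, 1793, 1177 and 1628 in arrays labelled 7-day-old, against 5240, 5755, 5420 and 4300 in arrays labelled 3-day-old. The gap between the labels was wider than the range within either, with -1.60 on the log2 scale (adjusted p = 0.00774), and the call was kept with each array left out. TPCN2, a lysosomal cation channel, was lower, at -0.39 (adjusted p = 0.0305), a call kept only without replicate 4 of the arrays labelled 3-day-old or replicate 3 of those labelled 7-day-old (otherwise up to 0.0826). TMEM175, a lysosomal potassium channel, was higher by 0.63 (adjusted p = 0.0438), kept only without replicate 1 of the arrays labelled 3-day-old (otherwise up to 0.11). CFTR, the chloride channel of duct cells, averaged 232 ± 63.2 in arrays labelled 7-day-old, against 361 ± 58.4 in those labelled 3-day-old (SD, n = 4 each) and did not pass (log2 difference -0.67, adjusted p = 0.0977).

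Of 11 genes of glucose sensing and the calcium signal, 2 were higher and 1 was lower, with a median of 0.03. CAMK2B, a kinase activated by calcium and calmodulin, was at 308, 267, 277 and 279 in arrays labelled 7-day-old, against 133, 88.9, 139 and 166 in arrays labelled 3-day-old. Its log2 difference was 1.14 (adjusted p = 0.0128), kept with each array left out and lost without the 2 arrays apart (0.0843). ADRA2A, the adrenergic receptor that restrains insulin release, was higher by 1.32 (adjusted p = 0.0341), a call kept only without replicate 2 or 4 of the arrays labelled 3-day-old (otherwise up to 0.0843). The glucose transporter SLC2A1 was lower, at -0.59 (adjusted p = 0.0307), kept only without replicate 4 of the arrays labelled 3-day-old or replicate 1 of those labelled 7-day-old (otherwise up to 0.083).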

How the data were processed

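RNA from cultured islets of 8 pigs (4 per label) was measured on porcine GeneChip arrays with 24123 probe sets, 1 array per pig. The deposited intensities are linear values that the authors scaled so that each array has the same mean after trimming 2% at each end. How probes were summarised is not stated by the labels, the file header or the study's methods. Per the study's methods, samples with little RNA had a second round of amplification. The sources do not name those arrays.

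After 124 control probe sets were left out, values were floored at 1 (1528 were lower) and log2 transformed. A probe set was tested where at least 1 array reached its 20th percentile (21574 of 23999). limma 3.58.1 (lmFit and eBayes, R 4.3.3) compared the 4 arrays labelled 7-day-old with the 4 labelled 3-day-old, two-sided, with Benjamini-Hochberg adjustment over all tested probe sets and a threshold of 0.05. The precision is limited by the number of arrays. The labels number separate pigs. No 2 arrays shared more than 1 identical value.

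Symbols came from the platform annotation: 10069 probe sets had 1 symbol, 198 several and 13732 none. Each gene was read from its probe set with the highest mean log2 intensity, and levels of different probe sets were not compared. Of the 47 gene identifiers, 44 were found with the same symbol in the RefSeq table for Sscrofa11.1. Named genes were all that passed, the 2 largest differences of each role, channels known in beta cells and up to 4 genes per list that passed. The members, lists and rules were chosen with earlier results of these data known.

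On simulated data, limma recovered 42% of 2-fold and 70% of 4-fold changes set among the 21574 probe sets. There the changed probe sets were a far smaller share than the 10.7% called in these data. The simulated noise was also independent between probe sets. The recovery is therefore a check of the code and does not give the power of the test in these data. The alternatives were no filter, a stricter filter (50th percentile in 4 arrays), the methods' t-test, variances with an intensity trend and robust fit, median centring, quantile normalization, array weights, a replicate block, an offset of 16, the mean of all probe sets and each array left out. Leaving out both arrays apart on the second component was chosen after seeing the data.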

Additional observations from a re-analysis of the deposited data

Results flagged for a closer look

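In 4 of 90 groups of 4 arrays, 1 array lay far from the other 3 by Dixon's test, and chance gives about 1 in 20. All 4 were arrays labelled 7-day-old. ANO6 was at 897 in replicate 4, with 646 to 681 in the other 3. CLCN2 was at 431 in replicate 3, with 270 to 286 in the rest, and CLCN3 was at 1861 in replicate 3, with 1604 to 1619 in the rest. ORAI1 was at 143 in replicate 1, with 196 to 199 in the rest. None of these 4 genes passed the test between the labels.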

How the results depend on the processing

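The 5 calls (3 higher, 2 lower) were counted again under each alternative. KCNB2, CACNA2D1, KCNIP1, KCNQ1 and KCNE3 kept their sign in every alternative in which they were tested. No filter on low probe sets, median centring, quantile normalization, array weights and an offset of 16 gave 5 calls each. With 1 array left out, 2 to 5 genes were called, 2 to 4 higher and 0 to 2 lower, and the median log2 difference was -0.098 to 0.014. Without both arrays apart on the second component, 2 genes were called (1 higher and 1 lower). The stricter filter left 20 of the 45 genes, not KCNIP1, and called 6, of which 4 were lower; variances with an intensity trend and robust fit called 7, of which 4 were lower. Both added CLIC2 (adjusted p = 0.0332 and 0.031) and ITPR3 (0.0415 and 0.0465). The methods' t-test called 4, without KCNIP1 (0.0509). The mean of all tested probe sets of a gene called 3, of which 1 was lower, with KCNB2 at 0.16 (adjusted p = 0.726) and KCNQ1 at -0.13 (0.819). With the pig number as a replicate block, 0 genes were called, 0 higher and 0 lower (limma, adjusted p from 0.0576 for KCNB2 to 0.115 for KCNIP1), and 0 of all probe sets passed although 5264 had an unadjusted p under 0.05. Same-numbered pigs did not deviate together more than others (correlations -0.0135 to 0.00487, against -0.0462 to 0.0646 for pigs with different numbers). With 4 pigs per label, these correlations gave no sign of a pairing by number and cannot exclude one. Over all probe sets the alternatives called 1928 without a filter, 3295 of 12213 with the stricter filter and 3491 with the trend, against 2305, and 1008 to 1854 with 1 array left out. The median SE was 0.642 for the 12 dimmer genes and 0.159 for the 33 brighter ones.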
